A study of Mus musculus with 18 samples.

Results

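The 10 genes described here encode the 3 peroxisome proliferator-activated receptors (Ppara, Pparg and Ppard), the fatty acid translocase Cd36, the fatty acid binding proteins Fabp1, Fabp2 and Fabp4, the PPARα-responsive enzymes Vnn1 and Pdk4, and the fasting-regulated transcription factor Creb3l3. They were taken by gene symbol from the 40840 genes counted in liver RNA-seq. All mice were C57BL/6 females whose ovaries had been removed. They were obese either because they lacked leptin (ob/ob, on a normal diet) or, in wild-type mice, through a high-fat diet with added cholesterol (diet-induced obesity, DIO). In each model a minipump released PaPE-1 (300 µg/kg/day), a pathway-preferential ligand of estrogen receptor α made to favour its extranuclear signalling, estradiol (E2, 5 µg/kg/day), or vehicle for 6 weeks. Each of the 6 groups has 3 libraries in the counts, 18 in all (the records attached to the samples speak of 2 sequenced per group), and no ovary-intact or lean mice were among them. Genotype and diet cannot be told apart between the models, so ligands were compared within a model. The ligands were given at different doses.

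PPARs are nuclear receptors that bind fatty acids and their derivatives and pair with retinoid X receptors on DNA. In hepatocytes PPARα switches on fatty acid oxidation and ketogenesis during fasting, whereas PPARγ, best known from adipocytes, becomes abundant in fatty liver and drives lipid droplet and fatty acid uptake genes. CD36 carries long-chain fatty acids across the plasma membrane, and the small cytosolic FABPs bind them inside the cell.

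Totals ranged between 10470665 and 17021370 counts per library in ob/ob mice and between 16651616 and 21703791 in DIO mice. All 10 genes passed the filter on low counts in both models, among 13433 genes tested in ob/ob and 13884 in DIO liver. All 8 hepatocyte markers were present in every group. Levels are given in CPM, counts scaled to one common library total after TMM normalisation. Differences are log2 ratios with a standard error (SE), taken from edgeR's quasi-likelihood test across all genes, with Benjamini-Hochberg adjusted p and a threshold of 0.05. An exact permutation test of 3 libraries against 3 cannot go below p = 0.1 and was not used. One library stood apart from the others of its group. E2 replicate 2 of the DIO mice had 12.8 CPM of Cyp3a44, a cytochrome P450 gene, where the other E2 libraries had 883 and 569 CPM and vehicle libraries 5.20 to 10.6 CPM. It lay near but above the vehicle range for Cyp3a44 and within it for A1bg (65.3 CPM, against 40.4 to 77.5 CPM in vehicle libraries). It was on the side of the other E2 libraries for Dct (6.97 CPM, against 3.49 to 4.02 CPM in vehicle libraries) and Gsta1 (0.668 CPM, against 1.18 to 2.62 CPM in vehicle libraries). It was singled out after its values were seen, so calls gained without it rest on that choice. E2 results in DIO liver include it unless stated otherwise. Values of single genes are also given without it, while overlap counts and list medians are not.

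Fabp1 was by far the most abundant of the 10 transcripts, and the order at both ends was the same in every group. Levels were set between genes only as CPM per kilobase of exon. Fabp1, the liver FABP, averaged 8644.9 to 10940.4 CPM per kilobase in the 3 groups of DIO mice and 6307 to 8032 in those of ob/ob mice. Fabp2, the intestinal FABP, came second with 214 to 300.1 CPM per kilobase, and Creb3l3 next with 92.3 to 126. Their ranges did not overlap with that of the next gene, except that Creb3l3 and Cd36 overlapped in PaPE-1 and vehicle livers of ob/ob mice. Cd36 and Vnn1, a membrane pantetheinase that makes pantothenate and cysteamine, overlapped in the 3 groups of DIO livers and in E2-treated ob/ob livers. Ppara stood above the other 2 receptors in all groups, at 17.1 to 44.1 CPM per kilobase against 4.39 to 9.35 for Pparg and 1.95 to 4.21 for Ppard, which was last everywhere. Pdk4, a kinase that shuts off pyruvate dehydrogenase, overlapped with Pparg in all groups but E2-treated ob/ob and PaPE-1-treated DIO livers, and with Ppard in the 3 DIO groups.

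**Figure D1:**
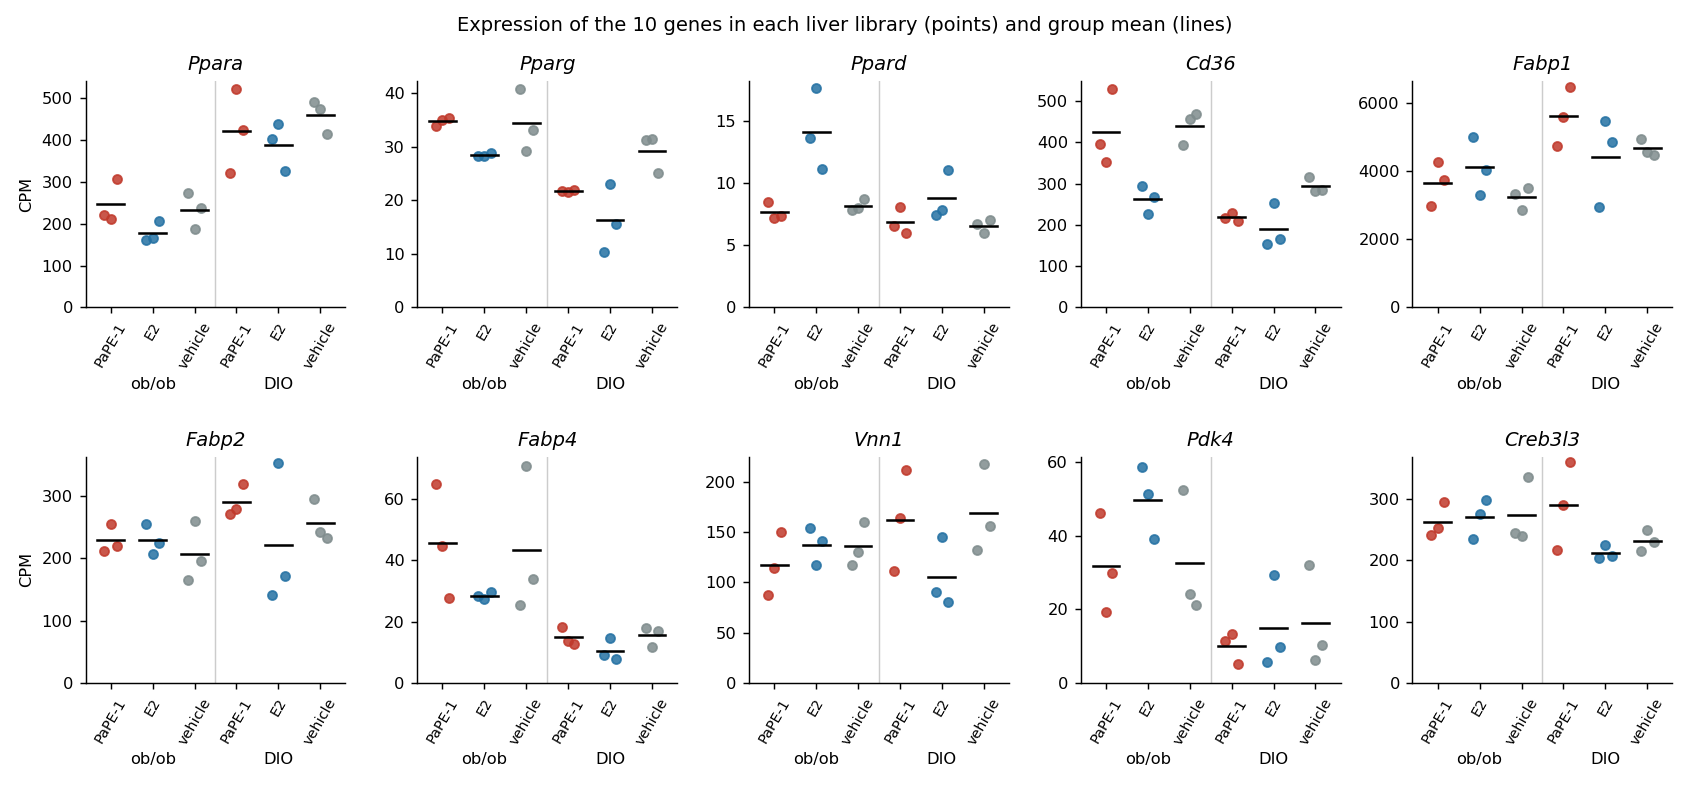
Expression of each of the 10 genes in CPM (y axis, from 0) in the 3 libraries of each group (points) with the group mean (line), for ob/ob livers on the left and DIO livers on the right of each panel. Cd36 was below and Ppard above every vehicle library of the same model in all 6 E2 libraries.

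Of the 10 genes 2 were called after E2 in ob/ob livers, Ppard upward and Cd36 downward, where 22.1% of all genes were called. Both calls were lost without E2 replicate 2 of the ob/ob mice. The sequences just before the annotated starts of Ppard and Cd36 are shown because PPARs and estrogen receptors bind DNA at known motifs. Fabp1 is shown beside them as the most abundant member. The sequences are RefSeq promoter windows on build GRCm38.p6, available for 8 of the 10 genes, with capitals marking matches to a PPAR element (DR1, AGGTCANAGGTCA with up to 2 mismatches) or its core half-site (AGGTCA, which lies within DR1) on either strand.
Cd36, minus strand, chr5:17835897-17836146: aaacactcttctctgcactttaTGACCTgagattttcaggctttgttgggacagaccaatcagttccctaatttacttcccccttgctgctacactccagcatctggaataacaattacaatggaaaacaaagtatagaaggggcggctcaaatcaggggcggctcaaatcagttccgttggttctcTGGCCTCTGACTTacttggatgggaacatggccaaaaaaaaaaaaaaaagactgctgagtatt
Ppard, plus strand, chr17:28232504-28232753: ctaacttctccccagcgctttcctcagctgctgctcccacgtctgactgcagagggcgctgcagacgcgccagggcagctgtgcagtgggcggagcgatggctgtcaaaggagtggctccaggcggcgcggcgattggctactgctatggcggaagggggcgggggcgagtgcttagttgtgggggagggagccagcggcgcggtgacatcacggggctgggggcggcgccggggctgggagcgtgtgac
Fabp1, plus strand, chr6:71199629-71199878: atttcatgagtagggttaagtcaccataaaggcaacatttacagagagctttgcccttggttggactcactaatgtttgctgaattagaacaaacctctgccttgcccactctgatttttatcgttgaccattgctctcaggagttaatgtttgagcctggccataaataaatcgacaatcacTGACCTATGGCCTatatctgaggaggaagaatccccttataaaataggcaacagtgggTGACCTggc
The Fabp1 stretch holds a DR1 with 1 mismatch 67 to 55 bases before the start, and the Cd36 stretch one with 2 mismatches 63 to 51 bases before it. Among the stretches not printed, one of Creb3l3, which was not called, holds a DR1 with 2 mismatches 209 to 197 bases before the start. Of the 250 bases before the start in 32851 windows of the table, 0.484% hold a DR1 with at most 1 mismatch, 3.24% one with at most 2, and 14% a half-site. An estrogen response element (GGTCANNNTGACC, up to 2 mismatches, in 9.08% of these stretches) was found in none of the 3 printed ones and in those of Pparg and Creb3l3. A match is a match of letters, and Cd36 has other annotated starts that the window does not cover.

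E2 raised Ppard and lowered Cd36 in ob/ob livers, and none of the other 8 genes passed the threshold. Ppard, the broadly expressed PPAR (chr17:28451657-28520446, plus strand, on GRCm39, the build of the counts), had 13.6, 17.6 and 11.1 CPM in E2-treated livers, against 7.85, 7.94 and 8.69 CPM in vehicle livers. Every E2 library lay above every vehicle library, and Ppard was 1.73-fold higher (log2 0.79 ± 0.17 SE, n = 3 each, edgeR adjusted p = 0.00902). Cd36 (chr5:17986688-18093957, minus strand) had 294, 225 and 269 CPM in E2-treated livers, against 394, 456 and 468 CPM in vehicle livers. The groups again did not overlap, and Cd36 fell to 0.598 of the vehicle level (log2 -0.74 ± 0.16 SE, edgeR adjusted p = 0.00826). E2 changed many genes in this model. Of all genes tested, 22.1% passed the threshold, 9.81% higher and 12.3% lower, so 2 of 10 is close to the share over all genes. Both calls were lost without E2 replicate 2 of the ob/ob mice, which had the highest Ppard and the lowest Cd36 of its group. Ppard was then at log2 0.60 (edgeR adjusted p = 0.0586) and Cd36 at -0.64 (edgeR adjusted p = 0.0540), and the share of all genes called was 5.7%.

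The other 2 receptors lay lower after E2 in ob/ob livers without passing the threshold. Pparg (chr6:115337840-115467365) had 28.3, 28.2 and 28.9 CPM in E2-treated livers, against 40.7, 29.2 and 33.2 CPM in vehicle livers. The E2 values were tightly grouped below the lowest vehicle library (log2 -0.27 ± 0.12 SE, edgeR adjusted p = 0.116). Ppara had 160.3, 166 and 207 CPM in E2-treated livers, against 274, 187 and 237 CPM in vehicle livers. These groups overlapped through E2 replicate 3 (log2 -0.39 ± 0.17 SE, edgeR adjusted p = 0.119). With Ppard and Cd36, Pparg made 3 of 10 genes without overlap, where 41.5% of all genes did not overlap.

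The 3 FABPs showed no call after E2 in ob/ob livers. Fabp1 had 5008, 3306 and 4024 CPM in E2-treated livers, against 3335, 2863 and 3490.3 CPM in vehicle livers, with overlap (log2 0.35 ± 0.18 SE, edgeR adjusted p = 0.167). Fabp2 differed by log2 0.14 ± 0.16 SE (edgeR adjusted p = 0.530), and its 95% interval ran between -0.19 and 0.48. Fabp4, the adipocyte and macrophage FABP, had 28.3, 27.4 and 29.6 CPM in E2-treated livers, against 25.2, 70.5 and 33.7 CPM in vehicle livers. A single vehicle library, replicate 2, was high, and the difference carried a wide error (log2 -0.59 ± 0.43 SE, edgeR adjusted p = 0.363). Of the remaining genes, Pdk4 had 58.8, 51.3 and 39.3 CPM in E2-treated livers, against 52.5, 24.1 and 21.1 CPM in vehicle livers. Vehicle replicate 1 lay among the E2 values (log2 0.61 ± 0.43 SE, edgeR adjusted p = 0.350). Vnn1 and Creb3l3 were near 0 (log2 0.02 ± 0.18 and -0.02 ± 0.15 SE), with 95% intervals between -0.38 and 0.42 and between -0.34 and 0.30.

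Other cells of the liver also express several of these genes, and in bulk tissue fewer cells of a type and less RNA per cell cannot be told apart. Endothelial markers, 14 in the list, summed to 334 to 414 CPM in E2-treated ob/ob livers, against 203 to 219 CPM in vehicle livers, and 10 of them were called higher. The number was 7 without E2 replicate 2, in a fit that called 5.7% of all genes. Over all libraries 9.81% of all genes were called higher and 12.3% lower, the shares to set beside each marker list here. The fits without E2 replicate 3, vehicle replicate 2 and vehicle replicate 3 called 10.6%, 15% and 12.6% of all genes. Macrophage markers summed to 537 to 659 CPM in E2-treated livers, against 449.5 to 872 CPM in vehicle livers, with 4 of 12 called higher and 1 lower. These 5 calls became 2, both higher, without E2 replicate 2, and 3 without E2 replicate 3 or vehicle replicate 2. Adipocyte markers summed to 1623 to 2567 CPM in E2-treated livers, against 757 to 1483 CPM in vehicle livers. Nearly all of that sum was Car3, which hepatocytes also express, while Plin1, Lep and Lgals12 were at 0 in both of these groups. Hepatocyte markers summed to 139116 to 155141 CPM in E2-treated livers, against 81784 to 109365 CPM in vehicle livers, with 4 of 8 called higher and 1 lower. Of these, 2 were left without E2 replicate 2, both higher, and 3 without E2 replicate 3 or vehicle replicate 3. Enterocyte markers, relevant to Fabp2 and Cd36, stayed at or under 8.73 CPM in sum in all 6 groups, with Cdx1, Cdx2, Sis and Alpi at 0 throughout. The part of the endothelial, macrophage and hepatocyte markers in the changes of Ppard and Cd36 was not tested.

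None of the 10 genes passed the threshold after PaPE-1 in ob/ob livers. Cd36 had 397, 351 and 529.9 CPM in PaPE-1 livers, against 394, 456 and 468 CPM in vehicle livers. Ppard had 8.45, 7.20 and 7.33 CPM in PaPE-1 livers, against 7.85, 7.94 and 8.69 CPM in vehicle livers. In both cases the groups overlapped, with differences of log2 -0.04 (95% interval -0.38 to 0.30) for Cd36 and -0.09 (-0.48 to 0.29) for Ppard. Over the 10 genes the values ran between -0.21 for Vnn1 and 0.18 for Fabp1, all far from the threshold, and 0 genes were without overlap, where 5.78% of all genes were. Of all genes tested 0% passed the threshold in edgeR, 356 had an unadjusted p under 0.05, and DESeq2's Wald test called 2, none of the 10 among them.

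Set directly against E2, PaPE-1 livers of ob/ob mice had less Ppard and more Cd36. Ppard was lower by log2 -0.88 ± 0.17 SE (edgeR adjusted p = 0.00705) and Cd36 higher by 0.70 ± 0.16 SE (edgeR adjusted p = 0.0114). These were 2 of 10 genes, where 17.4% of all genes were called. Without E2 replicate 2 of the ob/ob mice, Ppard remained past the threshold (log2 -0.69, edgeR adjusted p = 0.0473) and Cd36 did not (log2 0.60, edgeR adjusted p = 0.0734), with 3.6% of all genes called. Ppara had 220.2, 212 and 308 CPM in PaPE-1 livers, against 160.3, 166 and 207 CPM in E2 livers. Each PaPE-1 library lay above each E2 library, without passing the threshold (log2 0.47 ± 0.17 SE, edgeR adjusted p = 0.0757). Without PaPE-1 replicate 2 it did pass (log2 0.58, edgeR adjusted p = 0.0485). Pparg likewise had 33.9, 35.0 and 35.3 CPM in PaPE-1 livers, against 28.3, 28.2 and 28.9 CPM in E2 livers (log2 0.29 ± 0.12 SE, edgeR adjusted p = 0.115). With these, 4 of the 10 genes did not overlap, against 37.4% of all genes. The remaining 6 genes overlapped, and the doses differed between the ligands.

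**Figure D2:**
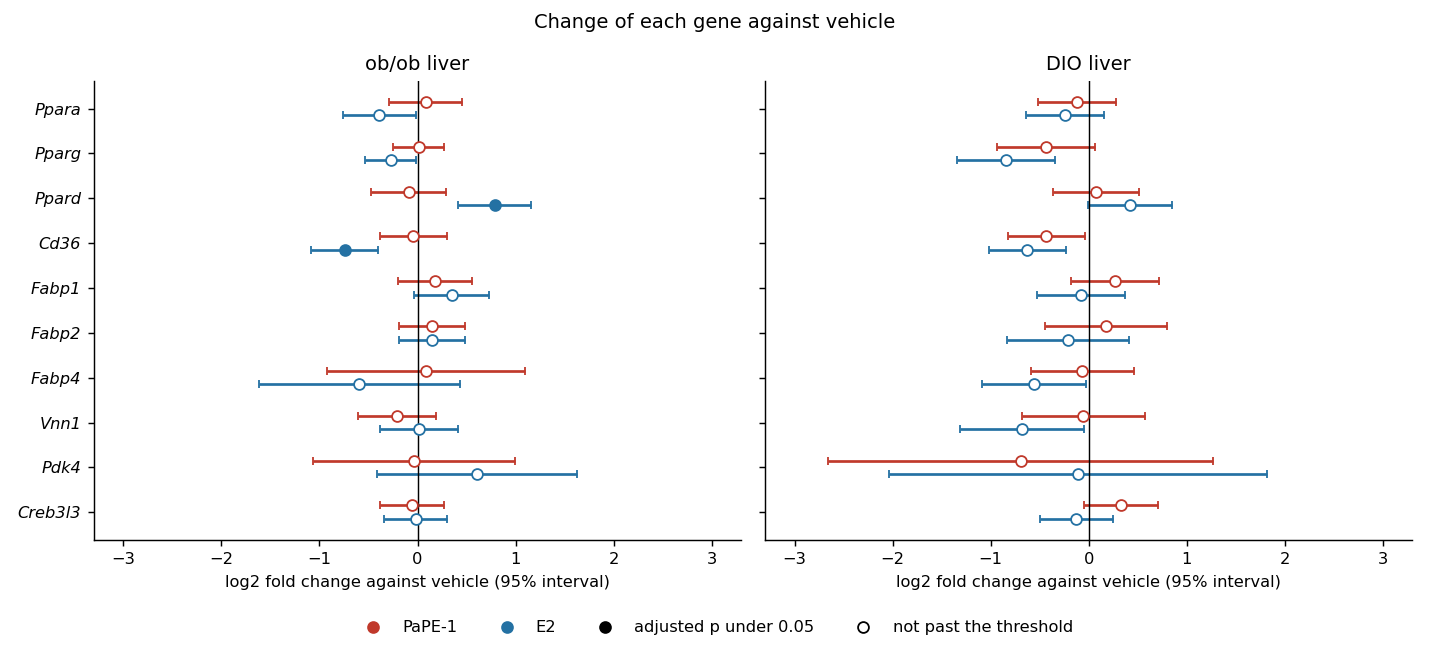
Log2 fold change against vehicle (x axis, points) with its 95% interval (bars) for PaPE-1 (upper of each pair) and E2 (lower), in ob/ob livers (left) and DIO livers (right). Filled points passed an adjusted p of 0.05, which only Ppard (0.79) and Cd36 (-0.74) did, after E2 in ob/ob livers.

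In DIO livers E2 gave lower values of Cd36 and Pparg, and no gene passed the threshold over all 9 libraries. Pparg had 10.3, 23.0 and 15.6 CPM in E2-treated livers, against 31.3, 31.4 and 25.1 CPM in vehicle livers. Every E2 library was below every vehicle library, with replicate 2 the closest (log2 -0.84 ± 0.23 SE, edgeR adjusted p = 0.796, unadjusted p = 0.00321). Cd36 had 154, 254 and 165 CPM in E2-treated livers, against 317, 282 and 285 CPM in vehicle livers. The same replicate was again the highest of the E2 libraries and still below all vehicle libraries (log2 -0.63 ± 0.18 SE, edgeR adjusted p = 0.838, unadjusted p = 0.00435). Ppard, in the other direction, had 7.41, 7.78 and 11.1 CPM in E2-treated livers, against 6.70, 5.94 and 6.98 CPM in vehicle livers. These groups did not overlap either (log2 0.42 ± 0.20 SE, edgeR adjusted p = 0.969). In all, 3 of 10 genes were without overlap, where 10.1% of all genes were, and 9 of 10 had a value below 0, with a median of log2 -0.23 against 0.01 over all genes. Of all genes tested 0% passed the threshold in edgeR, 725 had an unadjusted p under 0.05, and DESeq2's Wald test called 21, none of the 10 among them.

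Without E2 replicate 2 of the DIO mice, the library that stood apart, Pparg and Cd36 passed the threshold. Pparg was then lower by log2 -1.18 ± 0.19 SE (edgeR adjusted p = 0.0101) and Cd36 by -0.89 ± 0.14 SE (edgeR adjusted p = 0.0110), among 0.942% of all genes called. Fabp2 had 141, 352 and 171 CPM in E2-treated livers, against 295, 242 and 232 CPM in vehicle livers. Its highest value of all libraries was that of E2 replicate 2. Without that library the difference was log2 -0.72 (edgeR adjusted p = 0.0816), against -0.21 with it. Vnn1 had 90.7, 146 and 80.2 CPM in E2-treated livers, against 132, 218 and 156 CPM in vehicle livers. It overlapped only through the same library (log2 -0.68 ± 0.29 SE, edgeR adjusted p = 0.936, unadjusted p = 0.0370, and log2 -0.98 without it, edgeR adjusted p = 0.169). Fabp4 had 9.09, 14.7 and 7.92 CPM in E2-treated livers, against 17.9, 11.8 and 17.1 CPM in vehicle livers. It followed the same pattern (log2 -0.56 ± 0.24 SE, edgeR adjusted p = 0.936, unadjusted p = 0.0399, and -0.87 without the library, edgeR adjusted p = 0.112). Ppara (log2 -0.24 ± 0.18 SE), Fabp1 (-0.08 ± 0.21 SE) and Creb3l3 (-0.13 ± 0.17 SE) had smaller values. Without E2 replicate 2 these were at -0.34, -0.26 and -0.17, and Ppard was at 0.50. Pdk4 had 5.65, 29.5 and 9.71 CPM in E2-treated livers, against 32.1, 6.24 and 10.2 CPM in vehicle livers. A single library was high in each group, and the difference was not resolved (log2 -0.11 ± 0.81 SE, and -1.08 ± 0.79 SE without E2 replicate 2).

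The adipocyte marker sum was lower after E2 in DIO livers through Car3, which hepatocytes also express. The sum was 1392 to 2705 CPM in E2-treated livers, against 3087 to 3944 CPM in vehicle livers, nearly all of it Car3 (mean 1990.5 CPM in E2-treated and 3591 CPM in vehicle livers). The defining markers Plin1 and Lgals12 were at 0, and Adipoq averaged 0.0171 CPM in E2-treated and 0.0160 CPM in vehicle livers. Endothelial markers summed to 291 to 376 CPM in E2-treated livers, against 269 to 288 CPM in vehicle livers, and macrophage markers to 463 to 572 CPM against 370.3 to 471 CPM in vehicle livers. Hepatocyte markers summed to 96669 to 127212 CPM in E2-treated livers, against 85967 to 95182 CPM in vehicle livers, without overlap. None of these markers was called over all 9 libraries. Without E2 replicate 2 the adipocyte marker Cfd was called lower (log2 -7.20, edgeR adjusted p = 0.000147), with 0.942% of all genes called. No endothelial, macrophage or hepatocyte marker was called in that fit. The part of the markers in the values of Pparg, Cd36 and Fabp4 was not tested.

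**Figure D3:**
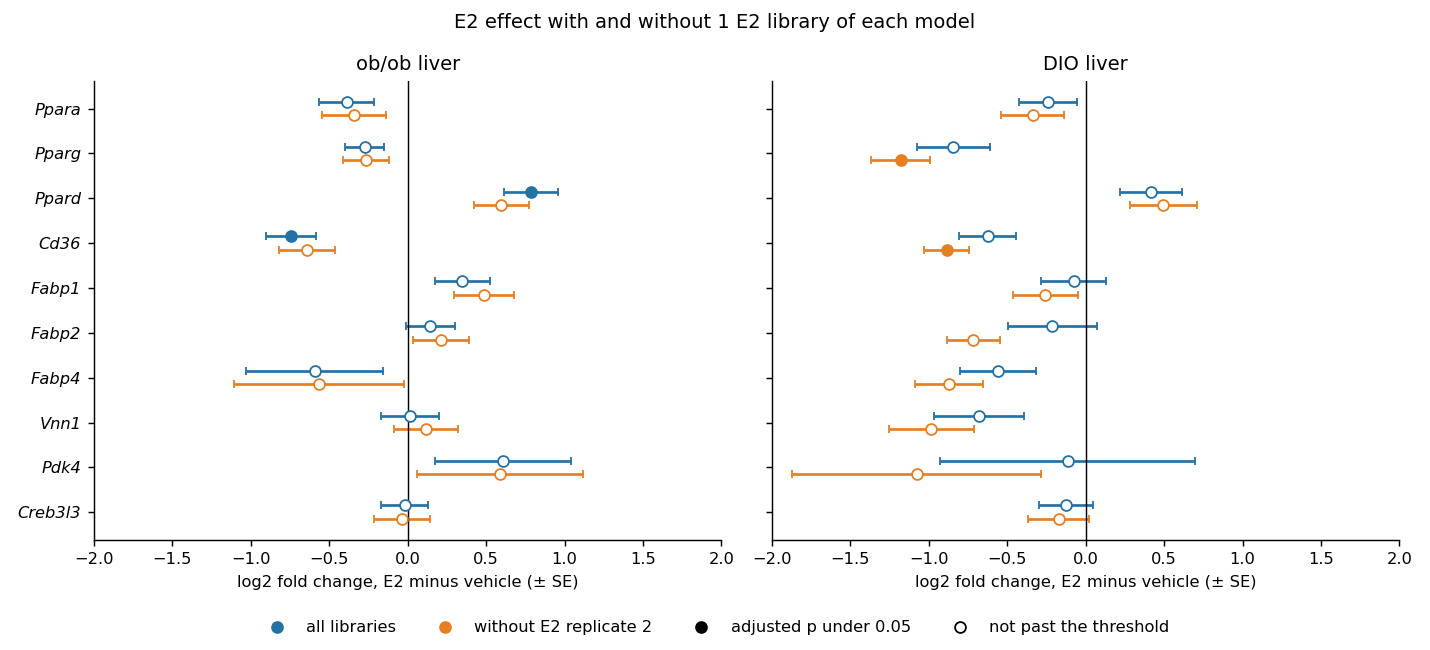
Log2 fold change of E2 against vehicle (x axis, ± SE) with all libraries (blue, upper) and without E2 replicate 2 of the model (orange, lower), in ob/ob livers (left) and DIO livers (right), with filled points past an adjusted p of 0.05. Without the library Ppard and Cd36 lost the call in ob/ob livers, and Pparg (-1.18) and Cd36 (-0.89) gained it in DIO livers. These fits called 5.7% of all genes in ob/ob and 0.942% in DIO livers. The libraries left out were chosen after their values were seen.

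PaPE-1 livers of DIO mice also had lower Cd36 and Pparg values, which did not pass the threshold. Cd36 had 216, 229 and 209.6 CPM in PaPE-1 livers, against 317, 282 and 285 CPM in vehicle livers. The groups did not overlap (log2 -0.43 ± 0.18 SE, edgeR adjusted p = 0.198, unadjusted p = 0.0324). Pparg had 21.7, 21.5 and 21.8 CPM in PaPE-1 livers, against 31.3, 31.4 and 25.1 CPM in vehicle livers. Its PaPE-1 values were nearly identical and below all vehicle values (log2 -0.43 ± 0.23 SE, edgeR adjusted p = 0.294). Both ligands are set against the same vehicle libraries. Hepatocyte markers summed to 110917 to 137293 CPM in PaPE-1 livers, against 85967 to 95182 CPM in vehicle livers, and adipocyte markers to 4075 to 4333 CPM in PaPE-1 livers, against 3087 to 3944 CPM in vehicle livers. Neither sum overlapped, the adipocyte sum was again nearly all Car3, and none of these markers was called. Endothelial and macrophage sums overlapped. The part of the markers in the values of Cd36 and Pparg was not tested. Creb3l3, a liver-enriched membrane-bound transcription factor activated in fasting, had 217, 290.3 and 360.3 CPM in PaPE-1 livers, against 214, 249 and 229 CPM in vehicle livers, with overlap (log2 0.33 ± 0.17 SE, edgeR adjusted p = 0.294). Fabp1 had 4745, 5596 and 6463 CPM in PaPE-1 livers, against 4948, 4564 and 4476 CPM in vehicle livers. The highest 2 values were in PaPE-1 livers, and the groups overlapped (log2 0.26 ± 0.21 SE, edgeR adjusted p = 0.482, and -0.26 after a trend on gene length was removed). Ppara, Ppard, Fabp2, Fabp4 and Vnn1 lay between log2 -0.12 and 0.18, and Pdk4 at -0.69 ± 0.83 SE, a value set by vehicle replicate 1 (32.1 CPM). Of all genes tested 0% passed the threshold in edgeR, although 2929 had an unadjusted p under 0.05 and DESeq2's Wald test called 758 genes, none of the 10 among them, and 32.2% did not overlap, against 2 of these 10.

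Between PaPE-1 and E2 in DIO livers no gene of the 10 was called, where 0.036% of all genes were, and 0 of 10 were without overlap, where 18.2% of all genes were. The largest difference relative to its error was that of Creb3l3, with 217, 290.3 and 360.3 CPM in PaPE-1 livers, against 203, 224 and 206 CPM in E2 livers (log2 0.45 ± 0.17 SE, edgeR adjusted p = 0.230). With E2 replicate 2 left out, Fabp2 (log2 0.89, edgeR adjusted p = 0.0207) and Pparg (log2 0.75, edgeR adjusted p = 0.0412) were higher in PaPE-1 livers, 2 of 10 genes where 5.64% of all genes were called. The library left out was chosen after its values were seen and had the highest Fabp2 and Pparg of the E2 group.

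Whether a ligand acted differently in the 2 models was tested as an interaction over the 18 libraries. No gene of the 10 passed the threshold for PaPE-1 (0% of all genes called, 1719 at an unadjusted p under 0.05) or for E2 (0.0141% of all genes called). For E2, the effect on Cd36 in ob/ob minus that in DIO livers was log2 -0.13 with a 95% interval between -0.66 and 0.39. The effect on Ppard differed by 0.35 (-0.20 to 0.91) and that on Pparg by 0.55 (-0.02 to 1.13, edgeR adjusted p = 0.315). For PaPE-1 the effect on Cd36 differed by 0.37 (-0.16 to 0.90, edgeR adjusted p = 0.575). The calls of Ppard and Cd36 in ob/ob livers alone are therefore not shown to be particular to that model. Without E2 replicate 2 of the DIO mice, the E2 interaction passed the threshold for Pparg (log2 0.89 ± 0.22 SE, edgeR adjusted p = 0.0259) and Fabp2 (0.85 ± 0.24 SE, edgeR adjusted p = 0.0420). These were 2 of 10 genes, where 5.76% of all genes were called. That library was chosen after its values were seen and had the highest Pparg and Fabp2 of its group. In 11 of the 12 fits with 1 library left out, 0 of the 10 genes were called.

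Several genes downstream of PPARα were lower after E2 in ob/ob livers. This list and the next ones were chosen with earlier results of these data known, so their counts and medians only describe these libraries. Of 37 listed target genes 36 were tested, with 9 called lower and 2 higher, where 12.3% and 9.81% of all genes were, and a median of log2 -0.22, against 0.01 over all genes. Cpt1a, which admits long-chain fatty acids into mitochondria for oxidation, had 279, 264 and 357 CPM in E2-treated livers, against 473, 499 and 514 CPM in vehicle livers. The groups were far apart (log2 -0.72, edgeR adjusted p = 0.00715). Aldh3a2, a fatty aldehyde dehydrogenase, had 365, 369 and 422 CPM in E2-treated livers, against 598, 663 and 695 CPM in vehicle livers, again apart (log2 -0.76, edgeR adjusted p = 0.00390). The β-oxidation enzymes Hadhb (log2 -0.53, edgeR adjusted p = 0.00860) and Acadm (log2 -0.56, edgeR adjusted p = 0.0155) were lower too. The list holds 11 calls, and fewer when a library was left out: 2 without E2 replicate 2, 4 without vehicle replicate 3, and 7 without E2 replicate 1, E2 replicate 3 or vehicle replicate 2. The 2 that stayed past the threshold without E2 replicate 2 were Aldh3a2 (edgeR adjusted p = 0.0297) and Cpt1a (edgeR adjusted p = 0.0495), with 5.7% of all genes called in that fit.

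Among 13 partners and coregulators of the PPARs, 4 were lower and 2 higher after E2 in ob/ob livers, where 12.3% and 9.81% of all genes were, with a median of log2 -0.33, against 0.01 over all genes. Rxrg, a retinoid X receptor, had 15.3, 16.3 and 15.4 CPM in E2-treated livers, against 7.46, 6.98 and 10.9 CPM in vehicle livers. It was higher in every E2 library (log2 0.88, edgeR adjusted p = 0.00507), and the only one of the list still called without E2 replicate 2 (edgeR adjusted p = 0.0300). Ncoa2 and Ppargc1b, both coactivators, were lower (log2 -0.76 and -0.67). Of these 6 calls, 2 were left without E2 replicate 3, 3 without vehicle replicate 3, and 3 after a trend on gene length was removed. PPARγ targets of fatty liver had 3 of 10 tested genes lower, where 12.3% of all genes were, and 0 higher, with a median of log2 -0.21. They were Lpl, which frees fatty acids from circulating triglyceride (log2 -0.94, edgeR adjusted p = 0.00203), Fitm2, which promotes lipid droplet formation (log2 -0.69, edgeR adjusted p = 0.00761), and Aqp7, a glycerol channel (log2 -1.45, edgeR adjusted p = 0.0276). Among 12 tested of 19 other fatty acid binding and transport genes, Fabp5 was higher (log2 1.79, edgeR adjusted p = 0.0351) and Acsl4, an acyl-CoA synthetase, lower (log2 -1.02, edgeR adjusted p = 0.00107). That is 1 of 12 in each direction, where 9.81% of all genes were higher and 12.3% lower. Of 12 CREBH and fasting genes only Apoa4, an apolipoprotein, was called (log2 -1.09, edgeR adjusted p = 0.0238), and of 6 pyruvate dehydrogenase kinases and phosphatases none. Both are below the 22.1% called of all genes. Of the 2 vanin relatives Btd, biotinidase, was higher (log2 0.42), where 9.81% of all genes were. Fabp5, Apoa4 and Aqp7 were no longer past the threshold without E2 replicate 2. The call of Btd was not examined without that library.

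In the main edgeR fit no gene of these lists was called against vehicle after PaPE-1 in either model or after E2 in DIO livers. That fit called 0% of all genes in each of these comparisons. DESeq2's Wald test called 758 genes after PaPE-1 in DIO livers, and its calls in the lists are not given here. PPARα targets had a median of log2 0.17 after PaPE-1 and -0.20 after E2 in DIO livers, against -0.03 and 0.01 over all genes. The nearest to a call after PaPE-1 was Acot3, a peroxisomal acyl-CoA thioesterase, with 563, 827 and 617 CPM in PaPE-1 livers, against 347, 285 and 342 CPM in vehicle livers. The groups did not overlap, where 32.2% of all genes did not (log2 1.04, edgeR adjusted p = 0.0707). The smallest edgeR adjusted p over all genes was 0.0707 too. PPARγ targets had a median of log2 -0.24 after PaPE-1, and partners and coregulators one of -0.32. The list medians were taken without removing a trend on gene length. Its removal turned the sign of Fabp1, Fabp2 and Ppara after PaPE-1 in DIO livers. After E2 the PPARγ targets had a median of log2 -0.98, with 0 of 9 tested genes above 0. As the lists were chosen with earlier results of these data known, this median describes these libraries only. Cidec, a lipid droplet fusion protein, had 0.769, 12.6 and 1.70 CPM in E2-treated DIO livers, against 19.3, 15.2 and 14.8 CPM in vehicle livers. The replicate that stood apart was near the vehicle level. Without it Cidec (log2 -3.75, edgeR adjusted p = 0.000417) and Mogat1, a monoacylglycerol acyltransferase (log2 -2.72, edgeR adjusted p = 0.00469), were called lower, with 0.942% of all genes called in that fit. Another PPARγ target called lower without that library was Cfd, an adipocyte product also in the adipocyte marker list, with 0.0904, 3.20 and 0.0514 CPM in E2-treated livers, against 11.5, 13.4 and 9.70 CPM in vehicle livers. Of the PPARα targets Plin2, a lipid droplet coat protein (log2 -1.04, edgeR adjusted p = 0.0239), and Acot2, an acyl-CoA thioesterase (log2 -1.19, edgeR adjusted p = 0.0445), were called lower without it. In the CREBH and fasting list Fkbp5 was called higher without it (log2 1.25, edgeR adjusted p = 0.00374).

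**Figure D4:**
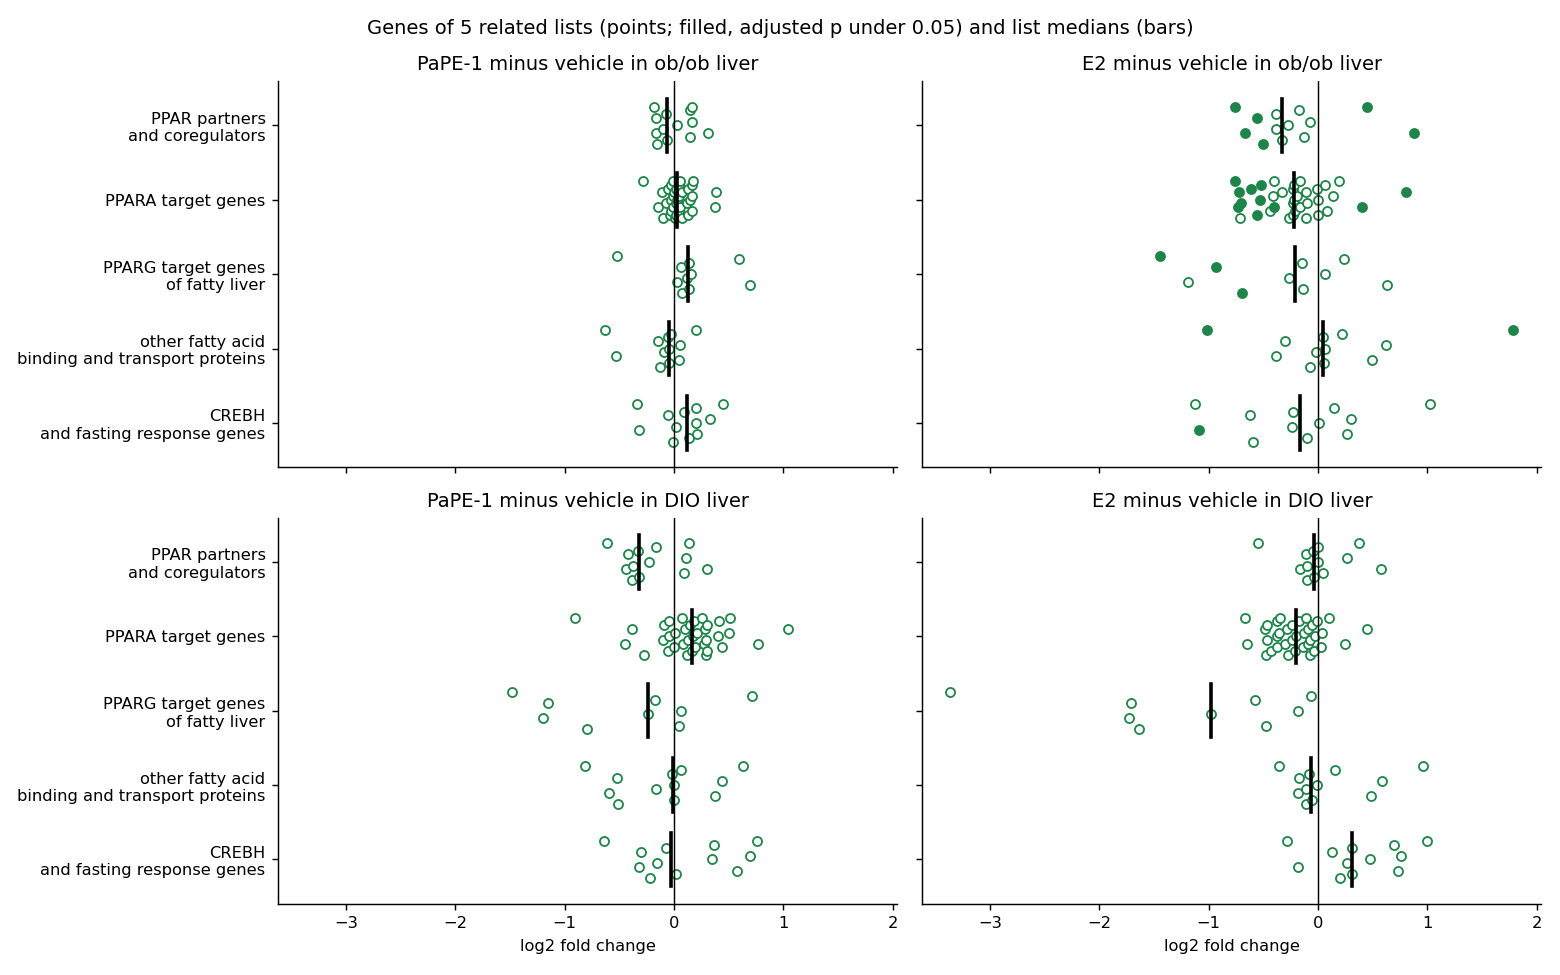
Log2 fold change (x axis) of each tested gene (points, filled where the adjusted p was under 0.05) in 5 lists of related genes, with the list median (bar), for PaPE-1 (left) and E2 (right) against vehicle in ob/ob livers (top) and DIO livers (bottom). Filled points occur after E2 in ob/ob livers alone, and the PPARγ targets after E2 in DIO livers have a median of -0.98. The lists were chosen with earlier results of these data known.

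The genes closest to Ppard and Cd36 in pattern were searched among 12323 genes over the 18 libraries, by the root mean square difference of log2 CPM after each gene's mean in each model was subtracted. For Ppard they were H2-M3, an MHC class I-like gene (0.18), Pnp, purine nucleoside phosphorylase (0.19), and Mif4gd (0.20), where Ppard itself varied by 0.36 (SD). For Cd36 they were Wwtr1, which encodes the transcriptional coactivator TAZ (0.16), Ivns1abp (0.16) and Sec22c (0.18), where Cd36 varied by 0.37.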

How the data were processed

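RNA of 18 livers was sequenced as stranded poly-A libraries. The authors deposited raw counts per gene for each model, made with STAR (2.7.6a) and featureCounts (2.0.0, strand option 2) on RefSeq genes of GRCm39 per the file headers and labels, with CASAVA (1.8.2) for the reads. The study's methods name another pipeline. The authors' DESeq2 tables (fold changes, p-values, normalized counts) were not used. Tests were run on the deposited counts with edgeR (4.0.16, on limma 3.58.1 and R 4.3.3), and with DESeq2 (1.42.0) as an alternative: filterByExpr, TMM, robust quasi-likelihood fit with one mean per group over the 9 libraries of a model, or over 18 for interactions. Steps were tested on simulated data. Alternatives were DESeq2 size factors, DESeq2's Wald test, no filter, removal of a length trend (loess, span 0.5), the compared groups alone, and each library left out. The 10 genes and the lists were chosen with earlier results of these data known. Named genes are the 10, up to 4 per list by smallest adjusted p, and the 3 nearest in pattern to each gene called. Per the study's methods the mice of both models were housed singly. Labels do not say how livers shared preparation, so p-values measure the spread between these libraries. Promoter windows are on GRCm38.p6 and were not converted to the build of the counts.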

Additional observations from a re-analysis of the deposited data

How the results depend on the processing

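No paired analysis was possible because the libraries' labels carry animal numbers that the groups do not share. Of 980 alternative values of the 10 genes, 896 kept their direction and side of the threshold, 73 changed sign, 8 gained the call and 3 lost it, and the cause was not tested. With each library left out in turn, the number of the 10 genes called ranged between 0 and 2 for E2 in ob/ob, 1 and 3 for PaPE-1 against E2 in ob/ob, and 0 and 2 for E2 in DIO, for PaPE-1 against E2 in DIO and for the E2 interaction. It moved by over 1.5 times only without E2 replicate 2 of the ob/ob or of the DIO mice. Log2 values that changed sign or call when a library was left out had these ranges. For PaPE-1 against vehicle in ob/ob, they were Cd36 -0.23 to 0.083, Creb3l3 -0.15 to 0.12, Fabp4 -0.25 to 0.63, Pdk4 -0.40 to 0.50, Ppara -0.11 to 0.22 and Pparg -0.088 to 0.15. For E2 against vehicle in ob/ob, they were Cd36 -0.85 to -0.64, Creb3l3 -0.11 to 0.15, Ppard 0.60 to 0.94 and Vnn1 -0.086 to 0.15. For PaPE-1 against E2 in ob/ob, they were Cd36 0.51 to 0.83, Creb3l3 -0.13 to 0.041, Fabp1 -0.31 to 0.015, Fabp2 -0.070 to 0.11 and Ppara 0.28 to 0.59. For PaPE-1 against vehicle in DIO, they were Fabp4 -0.23 to 0.044, Pdk4 -1.08 to 0.28, Ppara -0.30 to 0.043, Ppard -0.061 to 0.17 and Vnn1 -0.29 to 0.17. For E2 against vehicle in DIO, they were Cd36 -0.89 to -0.49, Fabp1 -0.26 to 0.15, Fabp2 -0.72 to 0.031, Pdk4 -1.08 to 0.86 and Pparg -1.18 to -0.59. For PaPE-1 against E2 in DIO, they were Fabp2 0.15 to 0.89, Pdk4 -0.97 to 0.39, Ppara -0.060 to 0.28 and Pparg 0.16 to 0.75. In the PaPE-1 interaction, they were Fabp1 -0.21 to 0.055, Fabp2 -0.16 to 0.18, Fabp4 -0.18 to 0.70, Pdk4 -0.34 to 1.20 and Vnn1 -0.38 to 0.058. In the E2 interaction, they were Cd36 -0.25 to 0.13, Fabp2 0.12 to 0.85, Fabp4 -0.31 to 0.51, Pdk4 -0.27 to 1.68 and Pparg 0.32 to 0.89. With a trend on gene length removed, sign changes were Fabp2 -0.095 and Vnn1 -0.070 for E2 in ob/ob, Creb3l3 0.070 and Fabp1 0.13 for PaPE-1 against E2 in ob/ob, Fabp1 -0.26, Fabp2 -0.20 and Ppara 0.13 for PaPE-1 in DIO, Fabp1 -0.048 for PaPE-1 against E2 in DIO, and Fabp1 0.41, Fabp2 0.33 and Ppara -0.044 in the PaPE-1 interaction. With no filter on low counts Vnn1 was at -0.0067 for E2 in ob/ob, and Ppara passed the threshold for PaPE-1 against E2 in ob/ob (0.49, edgeR adjusted p = 0.0281). Counts of all genes called moved too. PaPE-1 against vehicle in DIO gave 758 genes in DESeq2's Wald test, 385 with no filter and 773 with the compared groups alone, against 0, and E2 against vehicle in DIO gave 21 in DESeq2's test and 1 with no filter, against 0. PaPE-1 against E2 in DIO gave 220, 56, 2 with the groups alone and 3 with the length trend removed, against 5. The PaPE-1 interaction gave 106 in DESeq2's test and 5 with no filter, against 0, and the E2 interaction 325 and 120, and 12 with the length trend removed, against 2. PaPE-1 in ob/ob gave 2 in DESeq2's test and 1 with no filter, against 0. With a library left out, all genes called ranged between 778 (without E2 replicate 2) and 3328 for E2 in ob/ob, against 2972 over all libraries, 491 (without E2 replicate 2) and 2844 for PaPE-1 against E2 in ob/ob, against 2344, 0 and 6 for PaPE-1 in ob/ob, 0 and 153 for PaPE-1 in DIO, 0 and 133 for E2 in DIO, 0 and 796 for PaPE-1 against E2 in DIO, 0 and 60 in the PaPE-1 interaction, and 0 and 831 in the E2 interaction. List counts under each alternative were added after seeing the data. The libraries whose omission is described gene by gene were also chosen after their values were seen. In ob/ob livers the 95% intervals of Fabp4 and Pdk4 reach beyond 1 on the log2 scale in each comparison with vehicle.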
